A study of Mus musculus with 6 samples.

Results

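The DEAD- and DEAH-box RNA helicases were taken as every gene of the UMI count table whose symbol starts with Ddx or Dhx followed by a number, without the RNA sensor genes Ddx58, Dhx58 and Ddx60. The pattern matched 46 symbols, and 44 genes remained of the 10520 in the table, 30 named Ddx and 14 named Dhx. They were compared between 3 libraries of shControl and 3 of shLmna E0771 cells, to ask how the transcripts of this enzyme family changed when lamin A/C was downregulated. E0771 is a breast adenocarcinoma line of C57BL/6 mice. The shControl cells carried the empty pLKO.5-puro lentiviral vector and the shLmna cells a single lamin A/C shRNA in the same system, and both were selected with puromycin and expanded. The titles of the shLmna libraries read shRNA4, and the labels do not say which shRNA of the study this is. With a single shRNA against an empty vector, effects of lamin A/C loss and of the shRNA itself cannot be told apart. RNA was measured by MARS-seq, which reads the 3' end of polyadenylated RNA and marks every molecule by a molecular barcode (UMI), so that PCR copies count once.

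RNA helicases of this family use ATP to bind, unwind or remodel RNA and RNA-protein complexes. They are named after the amino acids of a conserved motif that binds ATP, aspartate-glutamate-alanine-aspartate in the DEAD-box enzymes and aspartate-glutamate-alanine-histidine in the DEAH-box enzymes. Nearly every step in the life of an RNA uses at least some of them, from transcription, splicing and ribosome assembly in the nucleus to export, translation and decay in the cytoplasm. The symbol is not a perfect guide to function, since Ddx26b, now named Ints6l, is related to a subunit of the Integrator complex and Ddx11 is a DNA helicase.

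The libraries held between 1846208 and 3242051 UMIs. Levels are given in CPM, the UMIs of a gene scaled to a common library total with TMM factors. Because every transcript was counted in a 3' window of the same length, levels are not divided by transcript length. From such counts, a change in level and a change in the 3' end in use cannot be told apart. Lmna itself had 810, 874 and 936 CPM in shControl and 388, 376 and 379 CPM in shLmna, with Log2FoldChange -1.20 and a standard error of 0.13 (adjusted p = 3.5e-05 by the quasi-likelihood test of edgeR, adjusted by the Benjamini-Hochberg method). Of the epithelial markers, Krt8 averaged 276 CPM in shControl and 291 CPM in shLmna, while Krt7 and Krt18 averaged at most 6.95 CPM. Epcam had between 13.3 and 14.4 CPM in shControl and between 4.25 and 11.7 CPM in shLmna, without overlap (Log2FoldChange -0.90, adjusted p = 0.0909). Of the mesenchymal markers, 5 of 6 were in the table and summed to between 4883 and 5773 CPM in shControl and between 5760 and 6544 CPM in shLmna, most of it Vim. S100a4 was higher in shLmna, at 139 against 64.8 CPM (Log2FoldChange 1.09, adjusted p = 0.000187, edgeR). Of the 6 epithelial markers 4 were in the table, and Cdh1 and Krt19 were not. Transcripts of 5 of 6 melanocytic markers (Pmel, Mlana, Dct, Tyrp1 and Sox10) summed to between 0.375 and 4.71 CPM in 4 libraries, but to 737 CPM in shControl replicate 3 and 595 CPM in shLmna replicate 2. Both of these libraries stand apart, 1 in each group, and results are also given with both left out, which leaves 2 libraries a group. Leukocyte markers (3 of 6 in the table) summed to between 15.9 and 19.2 CPM in shControl and between 20.9 and 26.6 CPM in shLmna, without overlap. Among them Lyz2 was higher in shLmna (Log2FoldChange 1.28, adjusted p = 0.0110, edgeR) and Cd68 had a Log2FoldChange of -0.62 (adjusted p = 0.234). The only endothelial marker in the table, Pecam1, reached at most 3.18 CPM. The part of these markers in the results was not tested. In the library titles, the shControl libraries carry consecutive plate numbers and the shLmna libraries the next ones. The labels do not say whether these are plate positions. Effects of this order and of knockdown cannot be told apart. In these bulk samples fewer cells with a transcript and less transcript per cell cannot be told apart either.

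Ddx3x and Ddx5 rose in lamin A/C knockdown E0771 cells. Of the 43 tested helicases, 34 had estimates below 0, among them all 13 of ribosome assembly. All 44 helicases had at least 1 UMI in each library. Together they held 0.466%, 0.466% and 0.419% of all UMIs in the shControl libraries and 0.404%, 0.394% and 0.397% in those of shLmna. The summed share was thus lower in every shLmna library than in any shControl library, by a small margin. After the filter on low counts, 43 of the 44 helicases were tested among 8969 genes, and Dhx37 was not. Ddx3x and Ddx26b met that filter in all 3 shLmna libraries but not in all shControl libraries. Ddx25 met it in all 3 shControl libraries but not in all shLmna libraries. The entry of each of these helicases rests on the group in which it is higher.

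The study called a gene differentially expressed when its Log2FoldChange passed 1 in size, its adjusted p lay under 0.05 and its normalized counts averaged over 5. By these criteria 2 helicases were called, Ddx3x and Ddx5, both higher, against 5.71% of all tested genes in either direction and 3.97% higher. With an adjusted p below 0.05 at any size, 3 of 43 helicases were higher (Ddx3x, Ddx5 and Dhx40), where 7.96% of all genes were higher. Lower at this threshold were 4 of 43 (Ddx18, Ddx20, Ddx24 and Ddx10), where 5.78% of all genes were lower. These shares, 6.98% higher and 9.30% lower, are near those of all genes. Without both libraries with melanocytic transcripts, 3 helicases were higher and 7 were lower, where 7.70% of all genes were higher and 5.45% lower, and Ddx10 was no longer among them (adjusted p = 0.139, edgeR). The estimated Log2FoldChange was below 0 for 34 of the 43 helicases and above 0 for 9, with a median of -0.24 against 0.0033 over all tested genes. The libraries of both groups did not overlap for 12 helicases lower in shLmna, or 27.9%, against 15.7% of all genes, and for 3 higher, or 6.98%, against 16.8%. Unadjusted p-values below 0.05 were found for 14 lower and 4 higher helicases, where 13% of all genes were lower and 15.3% higher at this level.

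**Figure D1:**
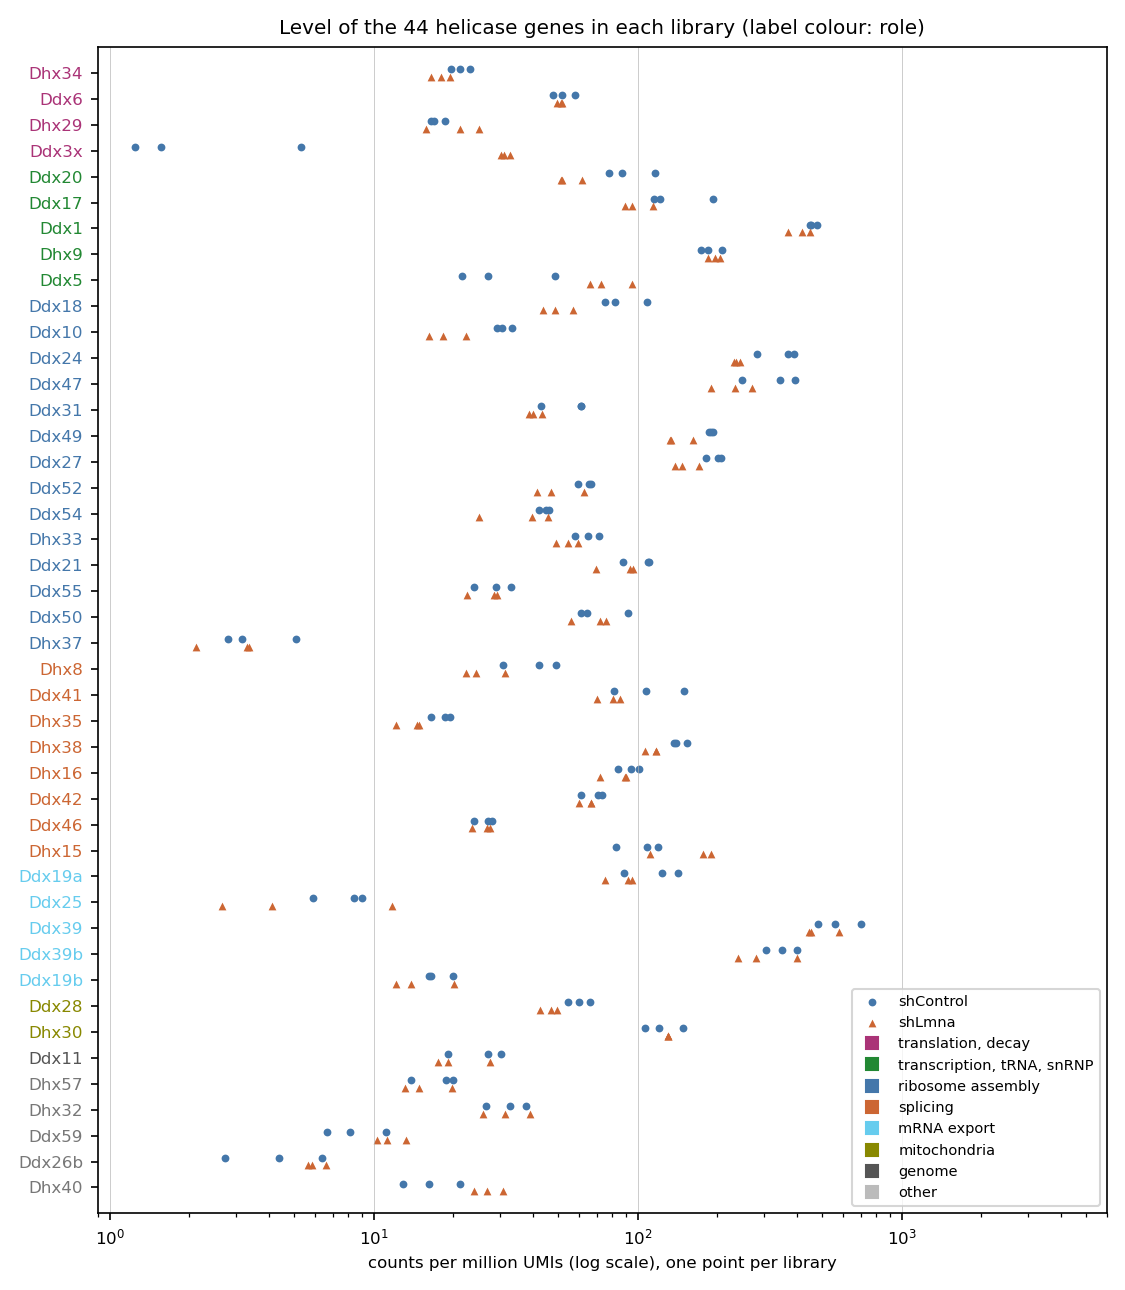
CPM on a log scale for the 44 helicase genes, with 1 point per library (circles shControl, triangles shLmna) and gene names coloured by role. The circles and triangles lie close together for most genes, and Ddx3x is the gene whose groups lie farthest apart, at 1.25 to 5.31 CPM in shControl and 30.5 to 33.0 CPM in shLmna.

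Among the helicases that act on cytoplasmic mRNA in translation and decay, Ddx3x rose and the other 3 did not pass the test. Ddx3x, an X-linked DEAD-box enzyme that helps ribosomes to start on mRNAs with structured leaders, lies on the forward strand of chromosome X of GRCm38 (mm10) from 13280970 to 13294052. Its UMIs numbered 4, 4 and 10 in shControl and 83, 83 and 62 in shLmna. These are 1.57, 1.25 and 5.31 CPM in shControl and 31.1, 30.5 and 33.0 CPM in shLmna. Every shLmna library lay above every shControl library, the shLmna libraries lay close together, and the highest shControl library was replicate 3, which carries melanocytic transcripts. The mean was 2.71 ± 2.25 CPM (SD, n = 3) in shControl and 31.5 ± 1.30 CPM (SD, n = 3) in shLmna, an 11.6-fold higher level. The Log2FoldChange was 3.68 (standard error 0.36, adjusted p = 1.33e-05, edgeR), which ranked 26 by p among all tested genes. It was 4.48 without both libraries with melanocytic transcripts (adjusted p = 5.47e-08, edgeR). When single libraries were left out it ran from 3.27 to 4.44, the highest without shControl replicate 3. The shControl level rests on 18 UMIs in all, and the 3' ends in use were not examined.

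Ddx6, which represses translation and recruits the decapping enzyme in processing bodies, had 47.8, 51.9 and 57.8 CPM in shControl and 51.7, 51.4 and 49.5 CPM in shLmna. The groups overlapped, and the Log2FoldChange was -0.04 with a 95% interval of -0.38 to 0.30. Dhx29, which binds the small ribosomal subunit and aids scanning, had 16.5, 16.9 and 18.6 CPM in shControl and 15.7, 24.96 and 21.3 CPM in shLmna, and these groups overlapped too. The Log2FoldChange of Dhx29 was 0.26 (interval -0.23 to 0.75). Dhx34, a factor of nonsense-mediated decay, had 23.1, 19.7 and 21.2 CPM in shControl and 19.5, 17.99 and 16.5 CPM in shLmna. Its groups did not overlap by a narrow margin, and its Log2FoldChange of -0.24 (standard error 0.21) did not pass.

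Of the 5 helicases of transcription, microRNA, tRNA and small nuclear ribonucleoprotein (snRNP) biology, Ddx5 rose and Ddx20 fell. Ddx5 (p68), a coactivator of transcription that also takes part in splicing and in microRNA processing by Drosha, lies on the reverse strand of chromosome 11 from 106780355 to 106789185. It had 21.6, 27.2 and 48.8 CPM in shControl and 65.96, 95.1 and 72.9 CPM in shLmna. All shLmna libraries were above all shControl libraries, and shControl replicate 3 was again the highest of its group. Ddx5 averaged 32.5 ± 14.4 CPM (SD, n = 3) in shControl and 78.0 ± 15.2 CPM (SD, n = 3) in shLmna. The Log2FoldChange was 1.30 (standard error 0.25, adjusted p = 0.0035, edgeR), and it was 1.497 without both libraries with melanocytic transcripts (adjusted p = 5.46e-05). With each library left out it ran from 1.06 to 1.66, and the highest adjusted p was 0.0490, without shControl replicate 2.

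Ddx17 (p72), the closest relative of Ddx5 and its partner in the same complexes, had 122, 194 and 115 CPM in shControl and 115, 95.1 and 89.3 CPM in shLmna. The groups came within 1 CPM of each other without overlap, and shControl replicate 2 lay far above the other libraries. The Log2FoldChange of Ddx17 was -0.53 (standard error 0.19, adjusted p = 0.0873), opposite in sign to that of Ddx5, and it passed without both libraries with melanocytic transcripts (-0.62, adjusted p = 0.0485, edgeR). Without shControl replicate 2 it was -0.25 (adjusted p = 0.466). The annotated end of Ddx17 overlaps an exon of Kdelr3 on the opposite strand. The UMI ratio of Ddx5 over Ddx17 was 0.177, 0.141 and 0.424 in shControl and 0.575, 1 and 0.815 in shLmna, so that every shLmna library was above every shControl library. This ratio was chosen because both are a close pair and was not tested on its own.

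Ddx20 (Gemin3), a subunit of the SMN complex that assembles spliceosomal snRNPs, lies on the reverse strand of chromosome 3 from 105678270 to 105687574. It had 116, 87.2 and 78.0 CPM in shControl and 51.7, 51.4 and 61.7 CPM in shLmna, with no overlap. The mean fell from 93.9 ± 20.1 to 54.9 ± 5.85 CPM (SD, n = 3 each), with Log2FoldChange -0.78 (standard error 0.18, adjusted p = 0.00974, edgeR). It was -0.85 without both libraries with melanocytic transcripts, and the adjusted p rose to 0.0550 without shControl replicate 1, the highest of its group.

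Ddx1, a member of the tRNA ligase complex, had 478, 449 and 452 CPM in shControl and 449, 372 and 418 CPM in shLmna. Its groups touched, and its Log2FoldChange was -0.15 (95% interval -0.44 to 0.13). Dhx9 (RNA helicase A), which unwinds double-stranded RNA and RNA-DNA hybrids during transcription, had 186, 174 and 209.6 CPM in shControl and 196, 205 and 185 CPM in shLmna. The libraries of Dhx9 overlapped fully, and the Log2FoldChange was 0.04 (interval -0.25 to 0.34). Ddx1 and Dhx9 are among the 10 most counted helicases, and their standard errors were 0.13 and 0.14.

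**Figure D2:**
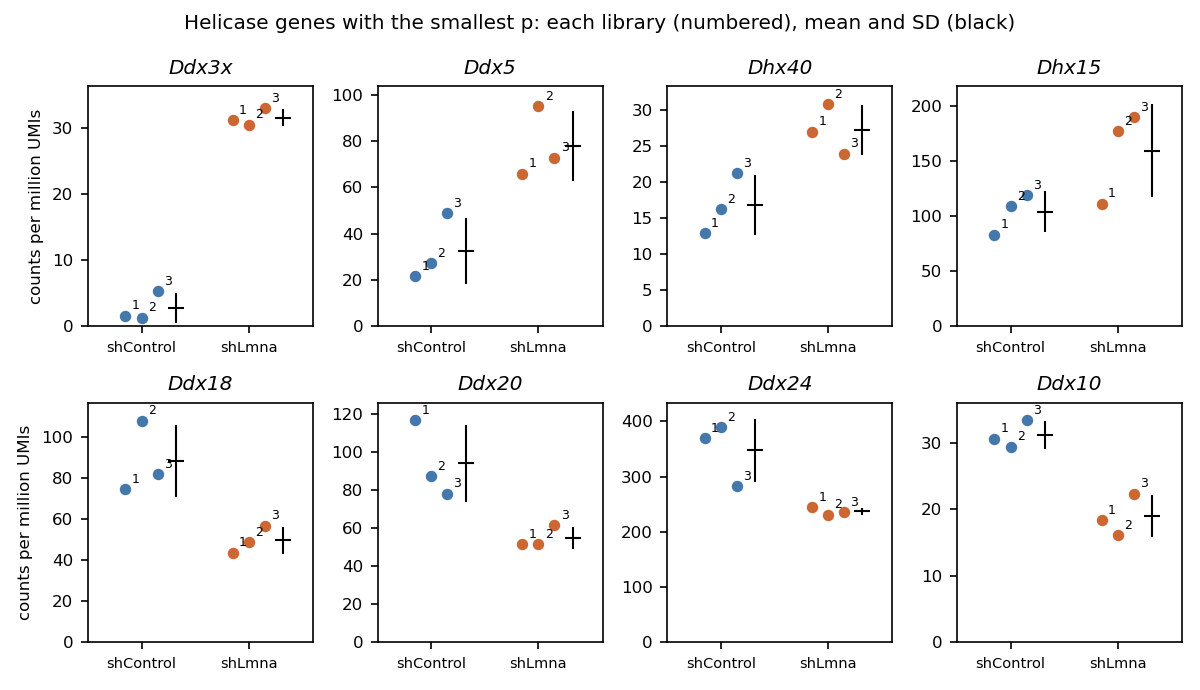
CPM of 8 helicase genes in each library (points numbered by replicate) with the mean and SD of the 3 libraries in black, for Ddx3x, Ddx5, Dhx40 and Dhx15 above and Ddx18, Ddx20, Ddx24 and Ddx10 below. The groups do not overlap for 7 of the 8 genes. Dhx15 is the exception, with shLmna replicate 1 at 111 CPM and shControl replicate 3 at 119 CPM.

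The helicases of ribosome assembly formed the largest role, with 14 genes, and all 13 tested had an estimate below 0. Their median Log2FoldChange was -0.37, against 0.0033 over all tested genes, of which 49.6% had an estimate below 0. Over all tested helicases the median was -0.24, with -0.25 for splicing and -0.24 for mRNA export. Among the other roles it ran from -0.26 for Ddx11 alone to 0.44 for the less characterised members. Of the 13 of ribosome assembly, 3 fell (Ddx18, Ddx24 and Ddx10), where 5.78% of all genes were lower. At an unadjusted p below 0.05, 7 were lower, where 13% of all genes were. None rose with edgeR or DESeq2 or was higher at an unadjusted p below 0.05. The groups did not overlap, with shLmna lower, for 5 of them, against 15.7% of all genes. Without both libraries with melanocytic transcripts the median was also -0.37, with 12 of 13 estimates below 0. In that fit 4 were lower at an adjusted p below 0.05, where 5.45% of all genes were. This count was 0 without shControl replicate 2, where 2.04% of all genes were lower. It was 1 without shControl replicate 1 or shLmna replicate 2, against 3.22% and 2.89% of all genes. It was 2 without shLmna replicate 3 or with DESeq2, against 2.52% and 3.88%. It was 5 without shControl replicate 3 or with the GC correction, against 7.61% and 8.64%. The share of all genes thus moved across these fits as well. The helicase genes of this role were not chosen independently of earlier results on these libraries, and no test was made of the group. Each helicase was placed in a single role, although some act in several. Dhx15 and Ddx5, with estimates above 0, were placed in other roles.

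Ddx18, which acts in the nucleolus on the large ribosomal subunit, lies on the reverse strand of chromosome 1 from 121553835 to 121567989. It had 74.9, 108 and 82.2 CPM in shControl and 43.8, 48.8 and 56.9 CPM in shLmna. The groups were well apart, and the mean fell from 88.4 ± 17.5 to 49.9 ± 6.59 CPM (SD, n = 3 each). The Log2FoldChange was -0.84 (standard error 0.18, adjusted p = 0.00695, edgeR), and -0.88 without both libraries with melanocytic transcripts. Without shControl replicate 2, the highest of its group, it was -0.66 and the adjusted p was 0.0728.

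Ddx24, a nucleolar helicase of the large subunit, lies on the reverse strand of chromosome 12 from 103407982 to 103425830. It had 369.8, 389.9 and 282 CPM in shControl and 245, 231 and 235 CPM in shLmna. The shLmna libraries lay close together below all shControl libraries, and the Log2FoldChange was -0.55 (standard error 0.15, adjusted p = 0.0219, edgeR). It did not pass in 4 of the 6 fits that left out a library, with an adjusted p of 0.0601 without shControl replicate 1, 0.123 without shControl replicate 2, 0.0743 without shLmna replicate 2 and 0.0808 without shLmna replicate 3. Ddx10, which acts on the small subunit, lies on the reverse strand of chromosome 9 from 53098635 to 53248053. It had 30.6, 29.4 and 33.4 CPM in shControl and 18.4, 16.2 and 22.3 CPM in shLmna, and these groups were also apart. Its Log2FoldChange was -0.72 (standard error 0.21, adjusted p = 0.0305, edgeR). The adjusted p was 0.0568 and 0.0849 without shControl replicates 1 and 2, 0.0749 and 0.120 without shLmna replicates 1 and 2, and 0.0811 with DESeq2.

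The other helicases of ribosome assembly had smaller estimates that did not pass. Ddx49, a small-subunit factor, had 193, 189 and 186 CPM in shControl and 162, 133 and 134 CPM in shLmna. The shControl libraries of Ddx49 lay within 10 CPM of each other and above all shLmna libraries, with a Log2FoldChange of -0.41 (standard error 0.14, adjusted p = 0.0666). Its annotated end overlaps an exon of Homer3 on the opposite strand. Ddx47, another small-subunit factor, had 393, 345 and 248 CPM in shControl and 270.2, 189 and 234 CPM in shLmna, with overlap, and a Log2FoldChange of -0.51 (standard error 0.18, adjusted p = 0.0736). Ddx27, of the large subunit, had 201, 206 and 182 CPM in shControl and 139, 171 and 147 CPM in shLmna, without overlap. Its Log2FoldChange was -0.37 (standard error 0.14, adjusted p = 0.101). Without both libraries with melanocytic transcripts, Ddx47 and Ddx27 passed, at adjusted p = 0.0333 and 0.0454 (edgeR). With a single library left out, the adjusted p reached 0.249 for Ddx47 and 0.264 for Ddx27.

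Ddx21 and Ddx50 are close relatives that lie side by side on the reverse strand of chromosome 10, from 62580251 to 62602281 and from 62615895 to 62651218. Ddx21, which couples rRNA transcription by RNA polymerase I to processing, had 88.2, 110.4 and 109 CPM in shControl and 69.7, 95.8 and 93.6 CPM in shLmna. Ddx50 had 61.2, 64.1 and 92.3 CPM in shControl and 55.8, 76.0 and 72.3 CPM in shLmna. Both overlapped between groups, with a Log2FoldChange of -0.25 (95% interval -0.61 to 0.11) for Ddx21 and -0.08 (interval -0.49 to 0.32) for Ddx50. The Log2FoldChange of Ddx31 was -0.44 (standard error 0.18, adjusted p = 0.125), with 60.8, 61.0 and 42.97 CPM in shControl and 43.5, 40.0 and 38.8 CPM in shLmna. Ddx52, Ddx54, Ddx55 and Dhx33 lay between -0.35 and -0.11. Dhx37, which releases a small nucleolar RNA from the nascent small subunit, had between 6 and 13 UMIs in shControl and between 4 and 9 in shLmna, too few for the test.

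Of the 8 helicases of the spliceosome none passed the test of edgeR and 1, Dhx15, passed with DESeq2. At an unadjusted p below 0.05, 3 were lower and 1 was higher, where 13% of all genes were lower and 15.3% higher, and 7 had an estimate below 0. The exception was Dhx15, the helicase that takes the spliceosome apart after splicing. Dhx15 had 83.1, 109 and 119 CPM in shControl and 111, 177 and 190.4 CPM in shLmna. The groups overlapped through shLmna replicate 1, and the Log2FoldChange of 0.62 (standard error 0.20) missed the threshold at adjusted p = 0.0517 (edgeR). Its adjusted p with DESeq2 was 0.0428. Dhx8, which releases the spliced mRNA, had 49.0, 42.2 and 30.8 CPM in shControl and 31.5, 22.4 and 24.5 CPM in shLmna, with a slight overlap and a Log2FoldChange of -0.65 (standard error 0.22, adjusted p = 0.0620). Ddx41, found in the catalytic spliceosome and mutated in myeloid leukaemia, had 149, 108 and 81.7 CPM in shControl and 81.0, 70.1 and 85.6 CPM in shLmna. Its shControl libraries were widely spread, and the Log2FoldChange was -0.53 (standard error 0.20, adjusted p = 0.0908), which passed without both libraries with melanocytic transcripts (adjusted p = 0.0337, edgeR). Without shControl replicate 1 it was -0.29 (adjusted p = 0.396). Dhx38, which remodels the spliceosome between both catalytic steps, had 154, 138 and 140.1 CPM in shControl and 106, 117 and 118 CPM in shLmna. The groups of Dhx38 were apart, and its Log2FoldChange was -0.34 (standard error 0.14, adjusted p = 0.119). Dhx35, Dhx16, Ddx42 and Ddx46 lay between -0.39 and -0.02, and Ddx46, which acts when the branch point is recognized, had a 95% interval of -0.44 to 0.39.

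**Figure D3:**
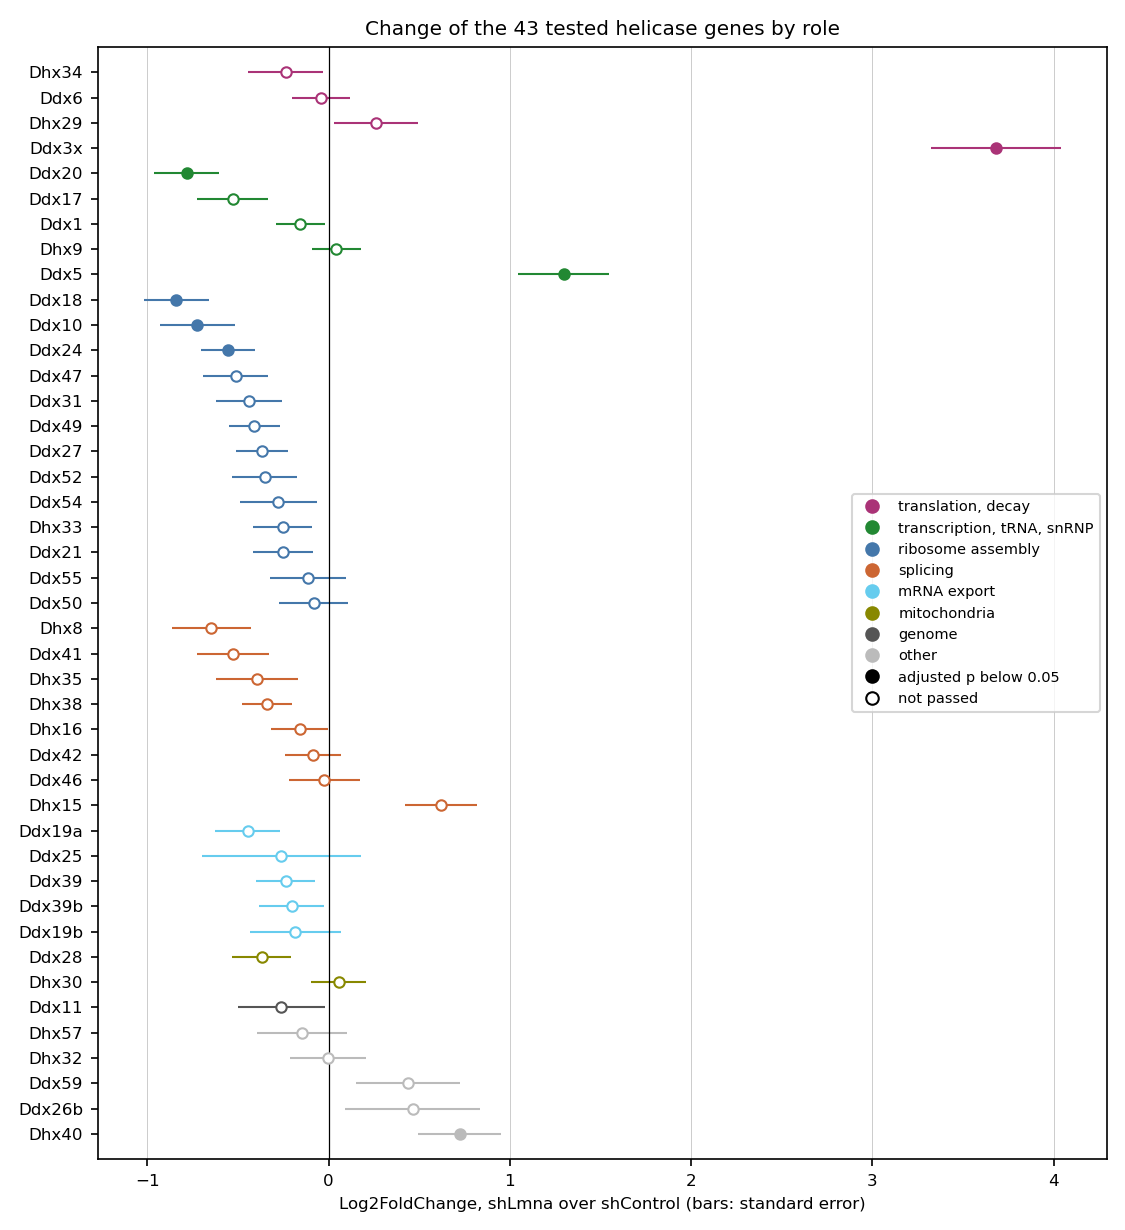
Log2FoldChange of shLmna over shControl for the 43 tested helicase genes, with bars of 1 standard error, ordered and coloured by role and filled where the adjusted p was below 0.05. All 13 genes of ribosome assembly lie left of 0, from -0.84 for Ddx18 to -0.08 for Ddx50, and Ddx3x at 3.68 and Ddx5 at 1.30 lie farthest to the right.

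The 5 helicases of mRNA export all had estimates below 0, and none passed with edgeR or DESeq2, while 1 was lower at an unadjusted p below 0.05, where 13% of all genes were. Ddx39 (now Ddx39a) and Ddx39b (UAP56) are close relatives that load export factors onto spliced mRNA. Ddx39 had 702, 560.3 and 483 CPM in shControl and 579.8, 455 and 447 CPM in shLmna. Ddx39b had 402, 351 and 307 CPM in shControl and 400.3, 240.1 and 280.2 CPM in shLmna. Both pairs of groups overlapped, at a Log2FoldChange of -0.24 (95% interval -0.58 to 0.11) for Ddx39 and -0.20 (interval -0.59 to 0.18) for Ddx39b. The annotated end of Ddx39 overlaps an exon of Adgre5 on the opposite strand, and that of Ddx39b overlaps the microRNA gene Mir8094 on the same strand. Ddx19a and Ddx19b, which strip proteins from mRNA at the nuclear pore, lie side by side on the reverse strand of chromosome 8, from 110974996 to 110997800 and from 111003188 to 111031751. Ddx19a had 124, 142 and 88.6 CPM in shControl and 94.8, 75.3 and 92.0 CPM in shLmna, and Ddx19b between 12.1 and 20.2 CPM in all libraries. They are near copies, whether reads could be assigned to either was not tested, and their Log2FoldChange was -0.45 (standard error 0.18, adjusted p = 0.117) and -0.18 (standard error 0.25). Ddx25, a testis helicase, had between 5 and 32 UMIs and entered the test through its shControl libraries.

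Both mitochondrial helicases assemble the mitochondrial ribosome. Ddx28 had 54.5, 59.7 and 65.8 CPM in shControl and 42.7, 49.6 and 46.8 CPM in shLmna, without overlap, and a Log2FoldChange of -0.37 (standard error 0.16, adjusted p = 0.152). Dhx30 had 149, 120.4 and 107 CPM in shControl and between 130.3 and 131 CPM in shLmna, with overlap, and a Log2FoldChange of 0.06 (95% interval -0.27 to 0.38). Among the less characterised members, Dhx40 lies on the reverse strand of chromosome 11 from 86768846 to 86807746. It had 12.9, 16.3 and 21.2 CPM in shControl and 27.0, 30.8 and 23.9 CPM in shLmna, without overlap. Dhx40 rose by a Log2FoldChange of 0.72 (standard error 0.23), just inside the threshold at adjusted p = 0.0494 (edgeR). It did not pass in 5 of the 6 fits that left out a library, where the adjusted p reached 0.173 without shControl replicate 1, and it did not pass with DESeq2 (0.124). Ddx59 had 6.67, 8.13 and 11.1 CPM in shControl and 11.2, 10.3 and 13.3 CPM in shLmna, and a Log2FoldChange of 0.44 (standard error 0.29). Ddx26b had between 7 and 18 UMIs and a Log2FoldChange of 0.46 (standard error 0.37). Dhx32, Dhx57 and Ddx11, the DNA helicase of sister chromatid cohesion, lay between -0.26 and -0.0044.

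The GC content of the 3' ends, taken from GENCODE transcripts and not from the RefSeq ends counted, moved with the result. Over the last 1000 transcript bases it was 33.7% for Ddx3x, the lowest among the tested helicases, 36.6% for Ddx5 and for Dhx15, and 38.7% for Dhx40. The helicases that fell had 45.0% (Ddx18), 44.1% (Ddx20), 53.0% (Ddx24) and 38.8% (Ddx10). The median was 45.5% over the tested helicases, 47.1% over all tested genes and 39.5% over the genes called higher by the criteria of the study. Across the 43 helicases the Log2FoldChange and the GC content had a Spearman's rho of -0.39, and across 8933 genes -0.13. Without Ddx3x and Ddx5, rho across the other helicases was -0.30. These points share the same 6 libraries and are not independent. With a GC correction of each library, the Log2FoldChange of Ddx3x was 3.15 (adjusted p = 1.59e-05, edgeR) and that of Ddx5 was 0.99 (adjusted p = 0.00296, edgeR), just under the fold criterion. That of Dhx40 was 0.56 (adjusted p = 0.0733) and that of Dhx15 was 0.29, while 7 helicases were lower, with Ddx21, Ddx49 and Dhx8 passing besides the 4 named above. The share of all genes lower at this threshold moved as well, from 5.78% to 8.64%. Ddx21, with a GC content of 37.5%, moved from -0.25 to -0.51 (adjusted p = 0.0226, edgeR).

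**Figure D4:**
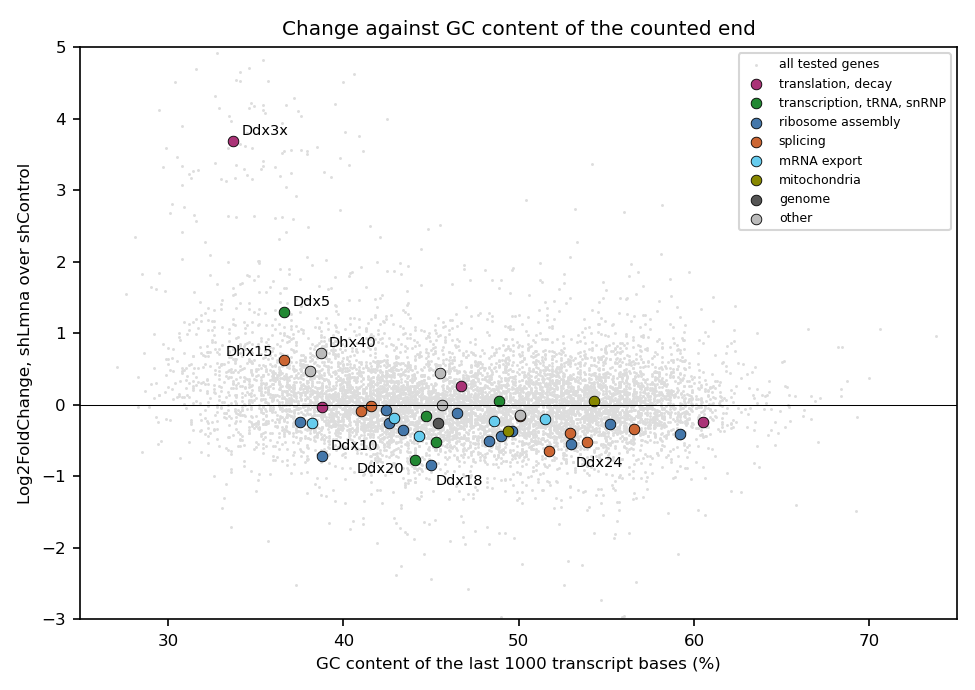
Log2FoldChange of shLmna over shControl against the GC content (%) of the last 1000 transcript bases for the 43 tested helicases (coloured by role) and all tested genes (grey). The axes leave out 12 genes that lie beyond them, and 36 genes have no GC value. Ddx3x (33.7%), Ddx5 and Dhx15 (36.6%) are the 3 helicases with the lowest GC content and lie above 0, while Ddx10 at 38.8% lies at -0.72.

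Promoter sequences are shown for the 2 higher and the 2 lower helicases with the smallest p, to show what precedes genes that moved in opposite directions. They come from RefSeq on GRCm38.p6 and run from 250 bases before the outermost annotated start to 50 bases after it, and a promoter was matched for 40 of the 44 helicases. Capitals mark matches on either strand to a GC box, spelled GGGCGG, or to a CCAAT box. The search also covered an E-box, spelled CACGTG. The letters used for the core that ETS factors recognise were CCGGAA, and those for the TATA box were TATAAA, besides the binding site of the factor NRF1. They are Ddx3x at chrX:13280772-13281071 on the forward strand, Ddx5 at chr11:106789136-106789435, Ddx18 at chr1:121567931-121568230 and Ddx20 at chr3:105687522-105687821, the last 3 on the reverse strand.
Ddx3x: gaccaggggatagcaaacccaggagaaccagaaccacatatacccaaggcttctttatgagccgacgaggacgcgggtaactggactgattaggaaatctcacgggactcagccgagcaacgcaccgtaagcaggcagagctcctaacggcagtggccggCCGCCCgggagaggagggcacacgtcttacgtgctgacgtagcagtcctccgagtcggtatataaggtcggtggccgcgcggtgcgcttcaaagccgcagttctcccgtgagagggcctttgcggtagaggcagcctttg
Ddx5: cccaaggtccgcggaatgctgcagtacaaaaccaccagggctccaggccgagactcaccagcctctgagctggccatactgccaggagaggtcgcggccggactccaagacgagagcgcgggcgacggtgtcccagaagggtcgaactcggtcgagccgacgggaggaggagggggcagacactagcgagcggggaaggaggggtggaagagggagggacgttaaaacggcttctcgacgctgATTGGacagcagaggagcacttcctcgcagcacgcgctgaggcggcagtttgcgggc
Ddx18: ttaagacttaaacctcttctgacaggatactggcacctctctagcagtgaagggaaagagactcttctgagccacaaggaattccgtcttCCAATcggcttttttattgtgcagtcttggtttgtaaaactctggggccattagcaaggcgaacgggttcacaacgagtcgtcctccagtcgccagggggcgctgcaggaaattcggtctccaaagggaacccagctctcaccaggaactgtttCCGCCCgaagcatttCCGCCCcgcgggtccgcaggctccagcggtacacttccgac
Ddx20: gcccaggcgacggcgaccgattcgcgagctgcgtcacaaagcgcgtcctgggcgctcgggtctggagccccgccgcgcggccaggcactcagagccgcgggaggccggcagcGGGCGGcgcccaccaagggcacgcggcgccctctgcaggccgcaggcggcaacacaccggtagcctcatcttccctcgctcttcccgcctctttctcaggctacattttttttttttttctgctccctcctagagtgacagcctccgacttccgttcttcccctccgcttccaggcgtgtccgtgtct

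These windows of Ddx3x and Ddx20 each held 1 GC box, that of Ddx18 held 2 GC boxes and 1 CCAAT box, and that of Ddx5 held 1 CCAAT box. None of the 4 held the letters used here for an E-box, an ETS core, a TATA box or an NRF1 site. Other spellings of these sites were not searched. Among the 40 helicase promoters, 62.5% held a GC box, against 35.9% of 27025 promoters of all genes, and 47.5% held an ETS core against 15.2%. A CCAAT box was in 50% against 38.0%, an NRF1 site in 20% against 4.82%, an E-box in 10% against 7.24%, and the letters TATAAA in none against 14.2%. The helicase promoters had a median GC content of 60.7% and all promoters 52.7%. All promoters include those of genes outside the count table, and expressed genes were not compared on their own. Of the 14 promoters of ribosome assembly helicases, 10 held a GC box, 9 an ETS core and 1 an E-box. These are matches of letters, and they name no bound factor.

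Genes that work with these helicases were read in the same fit. Of 16 tested RNA helicases with other names, Mov10 rose and Snrnp200 and Eif4a3 fell, where 7.96% of all genes were higher and 5.78% lower. Mov10, a helicase of mRNA decay and retroelement control, had 31.8, 36.9 and 27.6 CPM in shControl and 82.4, 60.2 and 63.3 CPM in shLmna, with Log2FoldChange 1.09 (standard error 0.19, adjusted p = 0.00155, edgeR). Snrnp200, which unwinds the paired snRNAs when the spliceosome is activated, had 318, 394 and 255 CPM in shControl and 224, 185 and 201 CPM in shLmna, a Log2FoldChange of -0.67 (adjusted p = 0.0145, edgeR). Eif4a3, the core of the exon junction complex, had a Log2FoldChange of -0.47 (adjusted p = 0.0411, edgeR). The groups did not overlap for any of the 3. Ythdc2, too low for the test of edgeR, had 1, 3 and 2 UMIs in shControl and 9, 15 and 11 in shLmna, and was higher with DESeq2 (adjusted p = 0.0321).

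Of 12 tested partners of Ddx6 in decapping and deadenylation, 2 fell with edgeR, and of these Edc4 also passed with DESeq2. Both are enhancers of decapping, Edc4 with 172, 153 and 137 CPM in shControl and 86.6, 80.4 and 71.8 CPM in shLmna, and Edc3 with 17.6, 19.4 and 19.6 CPM in shControl and 10.1, 12.1 and 9.57 CPM in shLmna. The Log2FoldChange was -0.95 for Edc4 (standard error 0.15, adjusted p = 0.000846, edgeR) and -0.82 for Edc3 (standard error 0.23, adjusted p = 0.0303, edgeR), while that of Ddx6 itself was -0.04. Of 11 tested partners of Ddx39b and Ddx19 in mRNA export, Sarnp alone passed with edgeR, with a Log2FoldChange of -0.98 (adjusted p = 0.0115), and 9 estimates were below 0. Thoc2 of the same list, whose counts were too low for that test, had 0 UMIs in each shControl library and 6, 7 and 6 in shLmna, and was higher with DESeq2 (adjusted p = 0.0110). Of 6 partners of Ddx1, Ddx5 and Ddx17, only Fam98b of the tRNA ligase complex passed, with a Log2FoldChange of -1.19 (adjusted p = 0.0083, edgeR). None of the 8 SMN complex partners of Ddx20 and none of the 20 G-patch cofactors passed with edgeR or DESeq2, with medians of -0.14 and -0.12. At an unadjusted p below 0.05, 2 SMN complex partners and 3 G-patch cofactors were lower, where 13% of all genes were.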

How the data were processed

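RNA of E0771 cells in 3 shControl and 3 shLmna libraries was profiled by bulk MARS-seq. Per the submitters' processing notes and the methods of the study, reads were trimmed with Cutadapt, mapped to mm10 with STAR 2.4.2a and counted per UMI with a modified HTSeq in a window of the final 1000 bases of a RefSeq gene plus 100 downstream. The deposited counts are whole numbers without normalization. The authors' ComBat values, whose batch is not named, and their DESeq2 table of fold changes and p-values were not used.

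The test was that of edgeR 4.0.16 in R 4.3.3 (filterByExpr with a minimum count of 10, TMM factors, quasi-likelihood test, Benjamini-Hochberg adjustment over 8969 genes). Standard errors are the absolute Log2FoldChange divided by the square root of F, and 95% intervals use the t distribution of the fit. DESeq2 1.42.0 was an alternative. GC content and positions came from GENCODE M21, matched for 10468 genes, 323 by an older symbol, and the GC correction was a loess offset per library (span 0.3, degree 2). The annotated ends are those of the longest coding transcript in GENCODE, and were not compared with the RefSeq ends used for counting. Plots used Python 3.11.15 and matplotlib 3.10.9. The scripts were tested on simulated data.

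Named helicases are those with an adjusted p below 0.05, the 10 with the highest mean, 5 close pairs, the 5 next by size of change, and those not tested, and others were named after their values were seen. Members, lists and alternatives were chosen with earlier results of these data known. The labels do not say whether replicates are separate cultures, so p-values measure the spread between these libraries. Replicates differed by more than sampling noise (chi-square per degree of freedom 5.52 to 9.02). Not every pair of same-numbered libraries deviated together, so the reported test has no replicate block, which was tried as an alternative. With 3 against 3 libraries only fits across all genes were tested.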

Additional observations from a re-analysis of the deposited data

How the results depend on the processing

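Ddx3x, where tested, and Ddx5 kept their direction and an adjusted p below 0.05 under all 15 alternatives, but a mean count of at least 50 removed Ddx3x from the test. That filter left 1 helicase passing the criteria of the study and 1 higher. With the GC correction, 1 passed these criteria and 7 were lower, where 8.64% of all genes were lower. With the GC correction and a replicate block together 7 were lower, where 8.17% of all genes were. Without both libraries with melanocytic transcripts 7 were lower, where 5.45% of all genes were. That last alternative was chosen after the markers were seen. With single libraries left out, between 2 and 4 helicases were higher and between 1 and 10 lower. Only 1 was lower without shControl replicate 1 or 2, 2 without shLmna replicate 2, and 10 without shControl replicate 3, where 3.22%, 2.04%, 2.89% and 7.61% of all genes were lower. The count passing the criteria of the study stayed at 2, partner genes and other helicases past the threshold ran from 3 to 11 around 7, and Lmna from -1.26 to -1.15. The causes were not tested. Same-numbered libraries did not all deviate together, with correlations of their deviations of 0.35, -0.11 and 0.0052 for replicates 1, 2 and 3. With the replicate block, 10 helicases passed, the 7 reported and Ddx47, Dhx15 and Dhx8, with 2 called by the criteria of the study, and Lmna was -1.19. Of these 10, 4 were higher and 6 lower, where 8.62% of all genes were higher and 6.43% lower.

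Of the values of single helicases under alternatives, 569 kept their direction and side of the threshold, 23 lost it, 23 gained it and 21 changed sign. Sign changes came only in helicases that did not pass. Without both libraries with melanocytic transcripts, Ddx46 was 0.065, Ddx50 0.024, Ddx6 0.023 and Dhx30 -0.039. Dhx32 was 0.0065 with upper-quartile factors, 0.0064 with a mean count of at least 50, 0.033 with the GC correction and 0.027 with the block as well. With single libraries left out, Ddx25 ran from -1.14 to 0.040, Ddx46 from -0.10 to 0.050, Ddx50 from -0.20 to 0.11, Ddx55 from -0.24 to 0.013, Ddx6 from -0.12 to 0.019, Dhx30 from -0.053 to 0.19, Dhx32 from -0.18 to 0.12 and Dhx9 from -0.018 to 0.11. The shControl level of Ddx3x and the counts of Ddx25, Ddx26b and Dhx37 are limited by depth.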
